A study of Rattus norvegicus with 6 samples.

Results

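Adult skeletal muscle genes that build the sarcomere, move calcium and buffer energy were measured in RNA from rat knee articular cartilage, and their slow-fibre and fast-fibre forms were compared between loaded and unloaded knees. A list of 40 such genes was searched for by gene name in the count table, and 34 of the 40 had a feature of that name among 26981 features. Of these, 8 belong to the slow class (8 listed), 8 to the fast class (11 listed) and 18 to neither. Myh1, Myh4, Ttn, Tcap, Myot and Atp2a1 had no feature of their name and are not analysed here under it. Features that the authors' annotation links to Atp2a1, Ttn, Myot and Tcap are described after the named genes. The feature that it links to Myh1 is the one named Myh2.

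The control group was 3 libraries (KB in the sample titles) of wild-type (WT) male SD rats whose knees were not loaded. The loaded group was 3 libraries (MB) of rats of the same strain, sex and genotype under excessive mechanical load. By the study design a testing machine compressed the right leg along its axis, at knee and ankle, under anaesthesia, every 2 days for 4 weeks. A session had 40 cycles of 10 s, with 5 N held for 9 s and a 20 N peak for 0.5 s, and the rats were 6 weeks old at the start. The samples are labelled as knee articular cartilage with no further gate, and nothing in the labels states that each library is a separate animal, so p-values rest on a spread among libraries that may be technical.

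Library totals ran from 28435307 to 40332904 counts, and 3 counts, the limit that a count of 0 allows, equal 0.0767 to 0.105 CPM depending on the library (counting error only). CPM are counts scaled to each library's TMM-adjusted total. Markers fixed for cartilage stood at 1510.4 to 1598 CPM in control and 2245 to 2344 CPM in loaded libraries in sum, with type II collagen (Col2a1) the most abundant, and markers of marrow (Elane, Mpo, Prtn3, Ctsg and Alas2) at 6234 to 6336 CPM in control and 4365 to 4629 CPM in loaded libraries, which shows RNA of more than 1 tissue. The share of all counts that fell on the 34 muscle genes was 1.16% ± 0.0180 in the control group and 2.69% ± 0.0178 in the loaded group (SD over 3 libraries). In such bulk samples more cells of a type and more RNA per cell cannot be told apart.

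Striated muscle contracts when calcium released from the sarcoplasmic reticulum binds troponin on the actin thin filament, which lets myosin heads of the thick filament pull on actin. Calcium pumps then return the ion to the store, and creatine kinase and myoglobin supply energy and oxygen. Many of these proteins exist in a slow form, used in fatigue-resistant fibres, and in fast forms used in quick, more glycolytic fibres, and rat hindlimb muscles around the knee mix both. Articular cartilage itself has no striated fibres.

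Most muscle transcripts were higher in the loaded knees. Of the 34 genes, all of which passed the filter on low counts, 32 rose, 1 (Tpm3) fell and 1 (Atp2a2) was not called. A gene was called where edgeR's quasi-likelihood p, Benjamini-Hochberg adjusted over 16447 genes, was below 0.05. Over all tested genes 35.8% were called in either direction, 17.9% as higher and 18.0% as lower. The median log2 fold change (loaded minus control) was 1.16 for the 34 genes against 0.0039 over all tested genes. At least 2-fold higher and called were 20 of the 34, where 4.99% of all tested genes were. For 32 of the 34 the 3 loaded libraries all lay above the 3 control libraries, which 23.9% of all tested genes showed. Changes given with an error are log2 fold changes ± SE of the fit throughout. The edgeR adjusted p of the 32 that rose ran from 8.82e-14 to 0.00235.

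**Figure D1:**
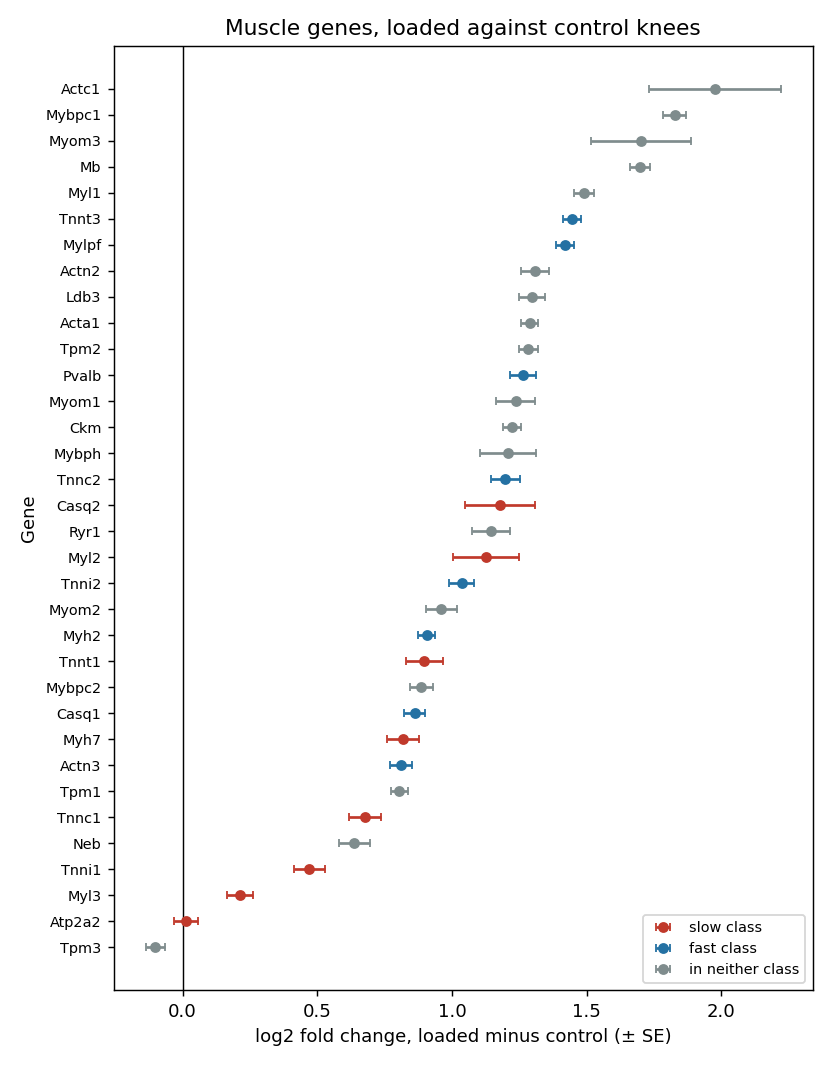
Log2 fold change (x axis, loaded minus control, bars are SE of the edgeR fit, n = 3 libraries a group) of the 34 muscle genes (y axis), coloured by fibre class. The fast class lies between 0.81 and 1.45, and the slow class between 0.014 and 1.18.

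Upstream sequence is shown for 5 genes chosen to span the results: Mybpc1 and Mb with large rises, the troponin I pair that diverged, and Atp2a2 with no called change. Each is the 250 bases before the gene start in RefSeq's GRCr8 annotation, 5′ to 3′ on the gene's strand, from chr7:24903374-24903623, minus strand (Mybpc1), chr7:110647743-110647992, minus strand (Mb), chr13:49781279-49781528, plus strand (Tnni1), chr1:207024240-207024489, plus strand (Tnni2) and chr12:39733269-39733518, plus strand (Atp2a2). Capitals mark E-boxes (CANNTG, the letters that muscle regulatory factors such as MyoD bind) and the TATA box letters TATAAA.
Mybpc1: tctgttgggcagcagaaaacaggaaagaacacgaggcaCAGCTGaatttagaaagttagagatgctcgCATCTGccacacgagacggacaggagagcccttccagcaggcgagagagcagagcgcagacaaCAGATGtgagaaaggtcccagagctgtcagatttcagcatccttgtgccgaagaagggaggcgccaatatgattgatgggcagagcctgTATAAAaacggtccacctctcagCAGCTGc
Mb: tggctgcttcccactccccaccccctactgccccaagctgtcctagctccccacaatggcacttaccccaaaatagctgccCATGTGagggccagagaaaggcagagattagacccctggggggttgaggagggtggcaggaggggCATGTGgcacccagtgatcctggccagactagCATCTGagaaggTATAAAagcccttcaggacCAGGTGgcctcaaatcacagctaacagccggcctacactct
Tnni1: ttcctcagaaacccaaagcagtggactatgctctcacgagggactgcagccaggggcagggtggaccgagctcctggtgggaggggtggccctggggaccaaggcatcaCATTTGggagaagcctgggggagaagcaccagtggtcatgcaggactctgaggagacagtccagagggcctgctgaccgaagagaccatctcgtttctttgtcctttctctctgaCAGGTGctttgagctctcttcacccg
Tnni2: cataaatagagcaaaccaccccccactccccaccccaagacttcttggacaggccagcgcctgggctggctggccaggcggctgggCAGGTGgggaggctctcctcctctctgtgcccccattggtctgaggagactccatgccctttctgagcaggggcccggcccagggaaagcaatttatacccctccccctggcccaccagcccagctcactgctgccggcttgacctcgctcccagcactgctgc
Atp2a2: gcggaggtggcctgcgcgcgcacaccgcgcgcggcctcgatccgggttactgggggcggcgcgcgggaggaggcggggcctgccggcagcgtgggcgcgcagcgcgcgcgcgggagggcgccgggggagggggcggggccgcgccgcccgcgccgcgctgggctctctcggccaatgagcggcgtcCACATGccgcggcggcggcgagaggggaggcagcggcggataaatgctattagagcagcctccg
Mybpc1 and Mb each held 4 E-boxes and a TATAAA, Tnni1 held 2 E-boxes, and Tnni2 and Atp2a2 held 1 each. Atp2a2 had the highest GC content of the 5, 80.0% against 52.8% in Mybpc1. These genes do not stand for the rest. In order of log2 fold change from the largest, Actc1 held 0 E-boxes, Mybpc1 4, Myom3 1, Mb 4 and Myl1 1. From the lowest, Tpm3, Atp2a2 and Myl3 held 1 each, Tnni1 2 and Neb 3.

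Motif shares were counted over all members with a promoter. Promoters were matched by symbol for 28 of the 34 genes. E-boxes (CANNTG, palindromic, so both strands are read at once) were in 23 of the 28 (82.1%), against 67.0% of 27457 genes with a 250-base window. All 6 slow genes with a promoter held one, as did 4 of 6 fast genes. The form CAGCTG, a subset of those E-boxes, was in 6 of 28 (21.4% against 12.9%), namely Acta1, Casq1, Ckm, Mybpc1, Myh7 and Tpm3. TATAAA on the gene's strand was in 5 of 28 (17.9% against 8.93%). MCAT letters (CATTCC, either strand), read by TEAD factors, were in 4 of 28 (14.3% against 12.9%), and a MEF2-type motif (CTA and TAG with 4 bases between, either strand) was in Myl1 only (3.57% against 3.70%). A gene with several starts counted once if any window held the letters, and a match is a description of the letters, not a site.

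Among thin filament genes, 11 of 12 rose. Skeletal muscle actin (Acta1, ENSRNOG00000017786), the main actin of adult fibres, stood at 1902, 1877 and 1856 CPM in control 1 to 3 against 4416, 4693 and 4653 CPM in loaded 1 to 3. All loaded values were above all control values, and the log2 fold change was 1.29 ± 0.0305 (SE). Cardiac actin (Actc1), a form that skeletal muscle makes mostly during development and repair, was rare, with 32, 42 and 40 counts in control 1 to 3 against 155, 96 and 143 counts in loaded 1 to 3. It had the largest fitted change of the 34, 1.98 ± 0.245, and the widest SE.

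The troponin subunits gave a slow and a fast gene for each role. Fast troponin T (Tnnt3), which ties the complex to tropomyosin, stood at 750.4, 727 and 743 CPM in control 1 to 3 against 2047, 2064 and 1939 CPM in loaded 1 to 3, while slow troponin T (Tnnt1) stood at 39.7, 34.8 and 38.7 CPM in control 1 to 3 against 65.9, 76.9 and 68.4 CPM in loaded 1 to 3. Neither gene's groups overlapped, and the log2 fold changes were 1.45 ± 0.0340 for the fast and 0.90 ± 0.0689 for the slow gene. Troponin I, the inhibitory subunit, moved by 1.04 ± 0.0465 in its fast form (Tnni2) and 0.47 ± 0.0568 in its slow form (Tnni1), whose upstream bases hold 1 and 2 E-boxes. Slow Tnni1 stood at 43.4, 39.4 and 42.0 CPM in control 1 to 3 against 56.1, 58.6 and 58.2 CPM in loaded 1 to 3. Those loaded values were only 1.39-fold above control, against 2.05-fold for Tnni2 (from 566 ± 3.66 to 1161 ± 86.1 CPM, SD, n = 3). Troponin C, the calcium sensor, rose by 1.20 ± 0.0537 in its fast form (Tnnc2) and by 0.68 ± 0.0598 in Tnnc1, the form of slow fibres and heart.

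Tropomyosins, the strands that cover the myosin sites on actin, split by gene. Tpm2 rose by 1.28 ± 0.0364 and Tpm1 by 0.81 ± 0.0322. Tpm3, which slow fibres use and which many non-muscle cells also express, stood at 687, 719 and 686 CPM in control 1 to 3 against 638, 654 and 658 CPM in loaded 1 to 3. It fell by only 0.10 on the log2 scale (adjusted p = 0.0352, edgeR), and 8 of the 13 alternative fits lost the call (adjusted p 0.0526 to 0.631). Scaled to library totals, as the deposited FPKM (fragments scaled to transcript length and library total) are, its level was 370.3 ± 18.8 FPKM in control and 372 ± 9.08 FPKM in loaded libraries. Nebulin (Neb), the giant protein along the thin filament, rose by 0.64 ± 0.0563, the smallest rise among members in neither class.

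All 9 measured thick filament genes rose. The feature named Myh2, a fast myosin heavy chain, stood at 1034, 1085 and 1051 CPM in control 1 to 3 against 1970.3, 1989 and 1979.9 CPM in loaded 1 to 3. The authors' annotation of that same feature gives Myh1 as its closest protein match, and fast heavy chain genes are near-identical neighbours, so its reads may come from more than 1 of them. Its log2 fold change was 0.91 ± 0.0308. Slow heavy chain (Myh7, ENSRNOG00000016983), the motor of slow fibres that the heart also uses, stood at 41.4, 47.5 and 46.0 CPM in control 1 to 3 against 79.2, 81.3 and 77.3 CPM in loaded 1 to 3, a change of 0.82 ± 0.0593. The separation of the groups was complete for both heavy chains.

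Myosin light chains differed more from each other than the heavy chains did. The fast essential light chain Myl1 stood at 376, 399 and 397 CPM in control 1 to 3 against 1083, 1116 and 1096 CPM in loaded 1 to 3 and moved by 1.49 ± 0.0361, and the fast regulatory light chain Mylpf moved by 1.42 ± 0.0351. Slow Myl3, the essential chain of slow fibres and ventricle, stood at 112, 108 and 112 CPM in control 1 to 3 against 129.8, 124 and 131 CPM in loaded 1 to 3. Its loaded libraries were above the controls by 1.16-fold only (adjusted p = 0.00235, edgeR), the smallest rise of the 34. Myl2, the slow regulatory chain, was rarer, with 5.41, 5.78 and 5.88 CPM in control 1 to 3 against 12.5, 13.2 and 11.6 CPM in loaded 1 to 3, and moved by 1.13 ± 0.122.

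Myosin binding proteins, which sit on the thick filament and tune the heads, were led by the slow-type form. Mybpc1 (ENSRNOG00000056493), the slow form of myosin binding protein C, with 4 E-boxes upstream, stood at 134, 141 and 137 CPM in control 1 to 3 against 486, 501 and 472 CPM in loaded 1 to 3. That 3.55-fold difference (1.83 ± 0.0419 on the log2 scale) was the largest among members above 10 CPM, and it stands in neither class here although its protein is named for slow muscle. Mybpc2, the fast form, rose by 0.89 ± 0.0434, less than Mybpc1, and Mybph, a related protein, rose by 1.21 ± 0.104.

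Genes of the Z-disc, which anchors thin filaments, and of the M-line, which anchors thick ones, rose in 6 of 6 cases. Alpha-actinin 2 (Actn2), present in all fibres, stood at 55.8, 60.4 and 55.2 CPM in control 1 to 3 against 141, 137 and 146 CPM in loaded 1 to 3, a change of 1.31 ± 0.0529. Alpha-actinin 3 (Actn3), the form of fast fibres, was more abundant, with 339.7, 346 and 333 CPM in control 1 to 3 against 568, 618 and 602 CPM in loaded 1 to 3, and changed less (0.81 ± 0.0401), the smallest rise of the fast class. Loaded libraries were the higher ones for both. Ldb3, which binds alpha-actinin, rose by 1.30 ± 0.0468. The myomesins that crosslink the M-line rose by 1.24 ± 0.0737 (Myom1), 0.96 ± 0.0570 (Myom2) and 1.70 ± 0.186 (Myom3), the last from only 64 to 98 counts in the controls.

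Calcium genes rose in 4 of 5 cases. The release channel Ryr1 moved by 1.14 ± 0.0720 and the main calcium-binding protein of the fast-fibre store, Casq1, by 0.86 ± 0.0394 (from 173 ± 2.34 to 314 ± 4.64 CPM). Casq2, the calsequestrin of slow fibres and heart, was rare, with 182, 205 and 188 counts in control 1 to 3 against 366, 357 and 413 counts in loaded 1 to 3, and moved more than Casq1 (1.18 ± 0.130). Parvalbumin (Pvalb), the soluble calcium buffer of fast fibres, stood at 199, 182 and 185 CPM in control 1 to 3 against 457, 473 and 427 CPM in loaded 1 to 3. Its control and loaded ranges were far apart, and the change was 1.26 ± 0.0484. The calcium pump Atp2a2, the form of slow fibres that most other cells also use, stood at 148, 141 and 143 CPM in control 1 to 3 against 142, 149 and 146 CPM in loaded 1 to 3. In CPM the groups overlapped and the change was 0.014 ± 0.0446 (adjusted p = 0.841, edgeR). The deposited FPKM, scaled to library totals, were 26.4, 26.2 and 25.4 in control 1 to 3 against 29.1, 28.7 and 29.7 in loaded 1 to 3. On that scale every loaded value of Atp2a2 was above every control value.

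The oxygen and energy genes were among the most abundant. Myoglobin (Mb, ENSRNOG00000004583), the oxygen store of oxidative fibres, stood at 538, 513 and 519.9 CPM in control 1 to 3 against 1757, 1699 and 1643 CPM in loaded 1 to 3. Every loaded library held over 3 times the level of any control library, and the log2 fold change was 1.70 ± 0.0361. Muscle creatine kinase (Ckm) stood at 1670.5, 1639 and 1605 CPM in control 1 to 3 against 3639, 3909 and 3925 CPM in loaded 1 to 3 and moved by 1.22 ± 0.0339.

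Per length, fast-class transcripts outnumbered slow ones in every library. By deposited FPKM, the level in control libraries ran from 0.477 ± 0.0963 FPKM (Myom3) to 1195 ± 29.8 FPKM (Acta1, SD, n = 3 each). Of the fast class the lowest was Casq1, at 85.6 ± 2.51 FPKM in control, and Mylpf was the highest at 811 ± 2.48. Within the slow class Myl3 ranked first at 112 ± 0.225, followed by Tnnc1 at 60.6 ± 2.19 and then by Tnni1 at 35.9 ± 1.07 and Tnnt1 at 35.8 ± 1.72, neighbours closer than their spread. Casq2 was the lowest slow gene at 1.93 ± 0.257.

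**Figure D2:**
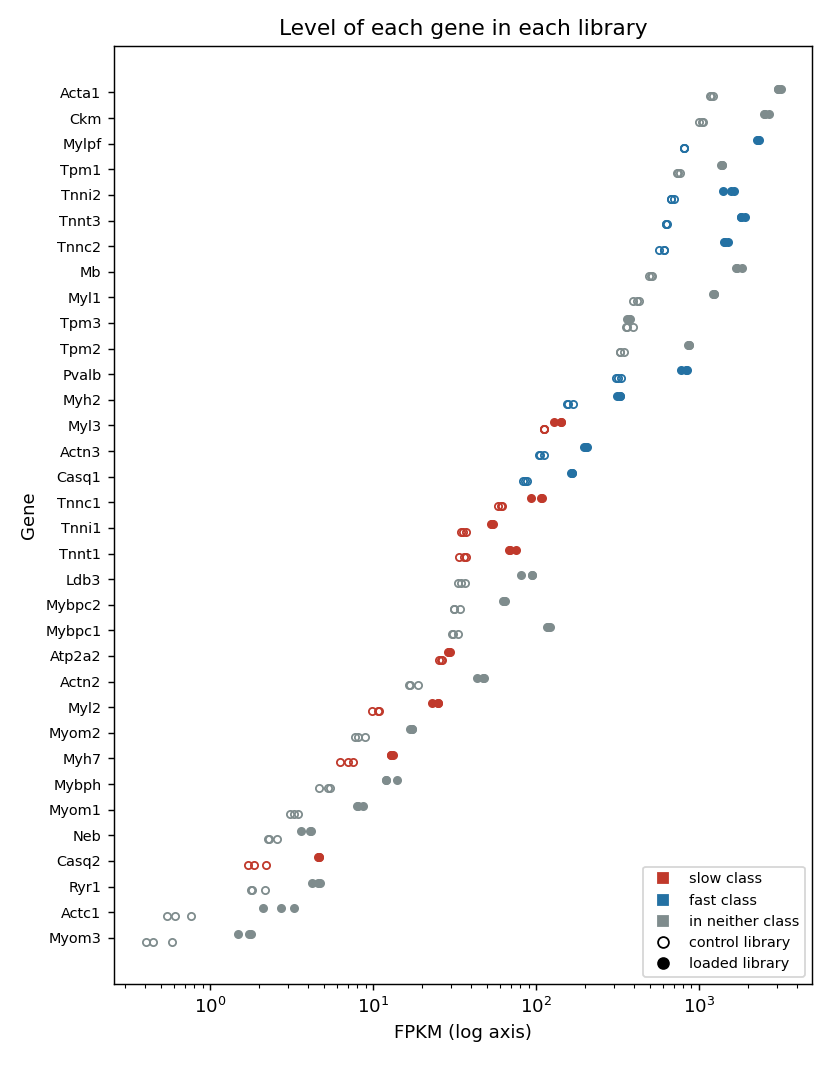
FPKM of the 34 muscle genes (y axis, ordered by control mean) in each library (x axis, log scale), open points for control and filled points for loaded libraries. Acta1 is the highest at 1195 ± 29.8 FPKM in control and Myom3 the lowest at 0.477 ± 0.0963, and the groups of Tpm3 and Atp2a2 lie closest together.

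As classes, the slow genes had the lower median log2 fold change. It was 0.75 over the 8 slow genes (7 rose, 1 not called) and 1.12 over the 8 fast genes (all 8 rose), a difference of -0.37 (slow minus fast log2 fold change). The ranges overlapped: 4 slow genes (Tnnc1, Tnni1, Myl3 and Atp2a2) changed less than every fast gene, and 4 fast genes (Tnnt3, Mylpf, Pvalb and Tnnc2) changed more than every slow gene. At least 2-fold higher were 5 fast genes and 2 slow genes, Casq2 and Myl2. As the genes were chosen with earlier results known, these medians carry no p, and the values by library take their place.

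The slow class made up 7.90%, 7.73% and 7.92% in control 1 to 3 and 4.78%, 4.62% and 5.01% in loaded 1 to 3 of the summed FPKM of both classes. The loaded shares were all lower than the control shares, 7.85% ± 0.106 and 4.80% ± 0.198 on average (SD, n = 3 each). This share does not depend on the scaling between libraries. It rests in part on Myl3 and Mylpf, the most abundant gene of each class, without which it was 6.42% ± 0.127 and 4.49% ± 0.193. Both classes had higher summed CPM in loaded libraries, the slow class at 445 ± 9.67 and 593 ± 5.97 CPM in sum and the fast class at 4206 ± 32.7 and 9390.4 ± 289 CPM.

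**Figure D3:**
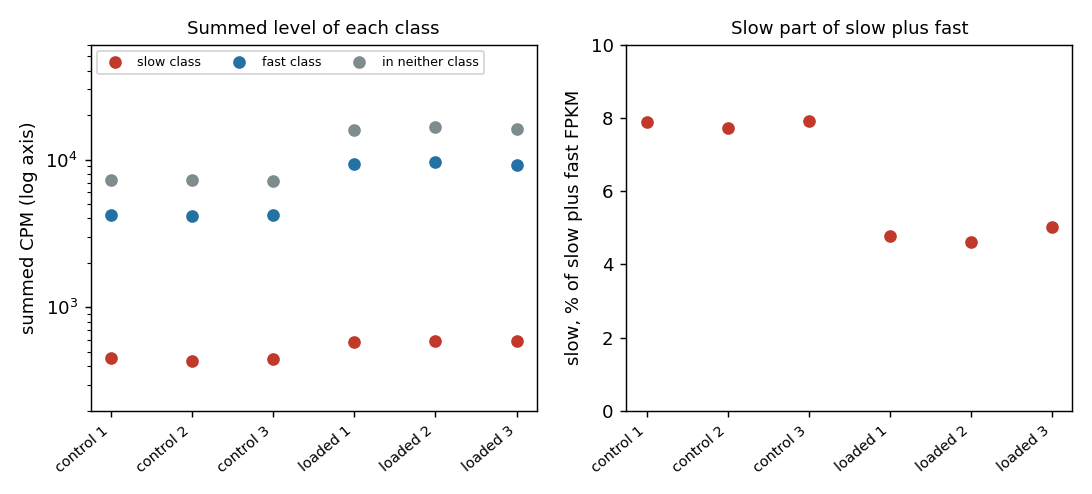
Summed CPM of slow, fast and other muscle genes (left, log y axis) and the slow part of slow plus fast FPKM in percent (right, y axis from 0) in each of the 6 libraries. The slow part was 7.85% ± 0.106 and 4.80% ± 0.198 (control and loaded, SD, n = 3 each).

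Within 6 pairs of a slow and a fast class gene that fill the same role, the balance could be read inside each library. Not among the 6 were Mybpc1 with Mybpc2 and Myl3 with Myl1, as Mybpc1, Mybpc2 and Myl1 stand in neither class. Their log2 fold changes were 1.83 for Mybpc1 and 0.89 for Mybpc2, and 0.21 for Myl3 and 1.49 for Myl1. The FPKM of Tnnt1 per 100 FPKM of Tnnt3 was 5.91, 5.33 and 5.81 in control 1 to 3 and 3.52, 4.16 and 3.86 in loaded 1 to 3. For Tnni1 per 100 FPKM of Tnni2 it was 5.45, 4.97 and 5.33 in control 1 to 3 and 3.24, 3.38 and 3.89 in loaded 1 to 3. For Tnnc1 per 100 FPKM of Tnnc2 it was 10.1, 10.2 and 10.0 in control 1 to 3 and 7.52, 6.16 and 7.56 in loaded 1 to 3. In all 3 troponin pairs each loaded library had a lower slow part than any control library, with log2 differences of the count ratio (loaded minus control) of -0.55 for troponin T, -0.56 for troponin I and -0.52 for troponin C. The regulatory light chains went the same way but less far (1.29 ± 0.0681 to 1.05 ± 0.0575 Myl2 per 100 Mylpf, SD, n = 3 each, and -0.29 on the log2 scale).

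The heavy chains overlapped and the calsequestrins had the higher slow part in loaded libraries. Myh7 per 100 FPKM of the Myh2 feature stood at 4.04, 4.43 and 4.43 in control 1 to 3 and 4.05, 4.12 and 3.93 in loaded 1 to 3. These ranges overlapped, with a log2 difference of -0.087. Casq2 per 100 Casq1 went from 2.25 ± 0.234 to 2.80 ± 0.0556, higher in all 3 loaded libraries (0.32 on the log2 scale). A two-sided exact permutation test on the log2 count ratio gave p = 0.1, the smallest that 3 libraries against 3 allow, for the 5 pairs that did not overlap, and p = 0.3 for the heavy chains (0.12 and 0.3 after Benjamini-Hochberg adjustment over the 6 pairs). With so few libraries no pair could reach the 0.05 threshold in this test, whatever its values.

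**Figure D4:**
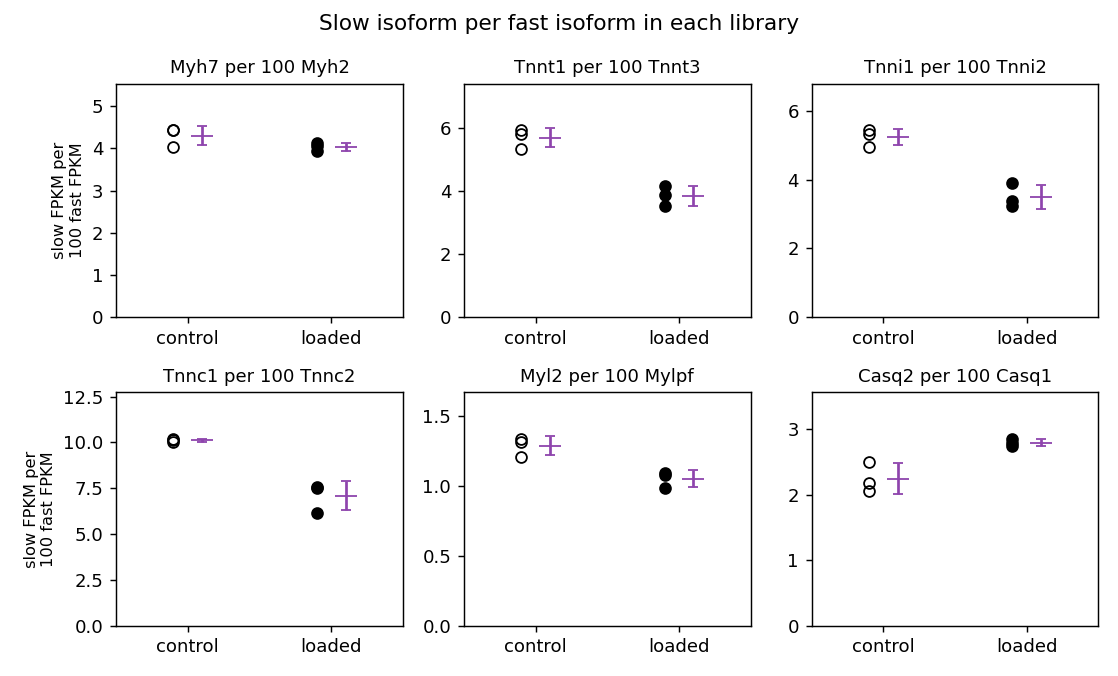
FPKM of the slow gene per 100 FPKM of the fast gene (y axes, from 0) in control (open points) and loaded (filled points) libraries for 6 pairs, with mean and SD (purple, n = 3 each). The troponin pairs are lower in loaded libraries, for example from 5.68 ± 0.311 to 3.84 ± 0.319 for Tnnt1 per 100 Tnnt3, the heavy chain pair overlaps, and Casq2 per 100 Casq1 is higher in the loaded libraries.

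Some features under other names carry the authors' annotation of a missing member, and those annotated as Atp2a1 and Myot rose. ENSRNOG00000047124, annotated as Atp2a1, the calcium pump of fast fibres, stood at 295, 289 and 273 CPM in control 1 to 3 against 593, 648 and 614 CPM in loaded 1 to 3 and moved by 1.11 ± 0.0437. A second feature with that annotation, which the authors called a new gene, moved by 1.08 ± 0.0598. Those changes lie within the fast class, and Atp2a2, its slow partner, was not called. Of 36 features annotated as titin (Ttn), the spring between Z-disc and M-line, only 4 passed the count filter and 1 was called, ENSRNOG00000023227, which rose by 0.78 ± 0.0853. All 5 features annotated as myotilin (Myot), a Z-disc protein, rose, by 0.81 to 1.34. The feature annotated as Tcap had 0 counts in every library. Several features with 1 annotation may split the reads of 1 gene.

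Other genes of the same machinery were read from lists. Beside the counts of these lists, 17.9% of all tested genes were called higher and 18.0% lower. In excitation-contraction coupling, the link from nerve impulse to calcium release, 16 of 17 rose and none fell, with a median of 1.26. Hrc, which binds calcium in the store, stood at 45.0, 42.2 and 44.0 CPM in control 1 to 3 against 107, 102 and 96.9 CPM in loaded 1 to 3. Tmem38a, a counter-ion channel of the store, moved by 1.40 ± 0.0531, and Dhrs7c, an enzyme of the same membrane, by 1.52 ± 0.0564, against a median of 1.12 in the fast class. Triadin (Trdn), which links Ryr1 to Casq1, was the member not called (adjusted p = 0.0970, edgeR), with 370, 361 and 394 counts in control 1 to 3 against 1750, 340 and 2040 counts in loaded 1 to 3. In CPM loaded 2 was the lowest of its group at 11.9, near the control values of 10.1 to 10.6, and without it edgeR called the gene (2.47 on the log2 scale, adjusted p = 1.69e-10). DESeq2 called it on all 6 libraries (2.02, adjusted p = 0.00918).

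Genes that assemble and tether sarcomeres rose in 23 of 25 cases with no fall (median 1.16). Xirp2, an actin-binding protein of the Z-disc and intercalated disc, moved most among the 3 with the smallest adjusted p (2.13 ± 0.0545), with 24.0, 23.7 and 23.8 CPM in control 1 to 3 against 108, 99.6 and 104 CPM in loaded 1 to 3. Pdlim3, an alpha-actinin binder, moved by 1.45 ± 0.0509 and Klhl41, which stabilises nebulin, by 1.26 ± 0.0491.

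Energy genes were less even. In the glycogen and glycolysis list 11 of 15 rose and 2 fell (median 0.65). The muscle forms Pgam2 (phosphoglycerate mutase) and Eno3 (beta-enolase) moved by 1.67 ± 0.0448 and 1.16 ± 0.0366, and Aldoa (aldolase) by 0.86 ± 0.0346. The members that fell, Pkm and Ldha, moved by -0.24 ± 0.0321 and -0.17 ± 0.0347. In the mitochondrial and fat oxidation list 9 of 12 rose and none fell (median 0.94). Fabp3, a fatty acid carrier of oxidative fibres, moved by 1.44 ± 0.0536, mitochondrial creatine kinase (Ckmt2) by 1.08 ± 0.0557 and the ATP carrier Slc25a4 by 1.13 ± 0.0375.

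Regulators of fibre type rose in 6 of 12 cases and fell in 1 (median 0.94), where 17.9% of all tested genes rose and 18.0% fell. Vgll2, a muscle cofactor of TEAD proteins, went from 5.04 ± 1.14 to 16.1 ± 1.48 CPM (SD, n = 3 each) and moved by 1.68 ± 0.158, and Mef2c by 0.75 ± 0.0621, while Nfatc1, a calcium-activated factor of slow fibres that immune and bone cells also express, moved by -0.41 ± 0.117. The call of Nfatc1 was lost without control 2 (edgeR adjusted p = 0.0607).

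Genes of the neuromuscular junction and fibre membrane were rare, and 8 of 10 rose with 1 fall. The acetylcholine receptor subunit Chrna1 had 7, 3 and 6 counts in control 1 to 3 against 62, 28 and 57 counts in loaded 1 to 3. It moved by 3.35 ± 0.506, a fold that rests on few control counts. Rapsn, which clusters that receptor, moved by 1.68 ± 0.251 and the sodium channel Scn4a by 0.87 ± 0.200. Lrp4, a receptor that bone cells share, was the member that fell (-0.29 ± 0.0898), a call lost in 5 of the 13 alternative fits.

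Of the developmental forms 2 of 4 rose, where 17.9% of all tested genes did. Embryonic myosin heavy chain (Myh3), made in developing and regenerating fibres, had 29, 26 and 31 counts in control 1 to 3 against 215, 150 and 174 counts in loaded 1 to 3. All loaded counts were far above all control counts, and the change was 2.84 ± 0.226, larger than that of any adult member. Myl4, the embryonic and atrial light chain, rose by 1.23 ± 0.160, whereas neonatal Myh8 had 1.99 ± 0.327 and 2.46 ± 0.311 CPM in control and loaded libraries (edgeR adjusted p = 0.364) and Tnnt2 was not called either.

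**Figure D5:**
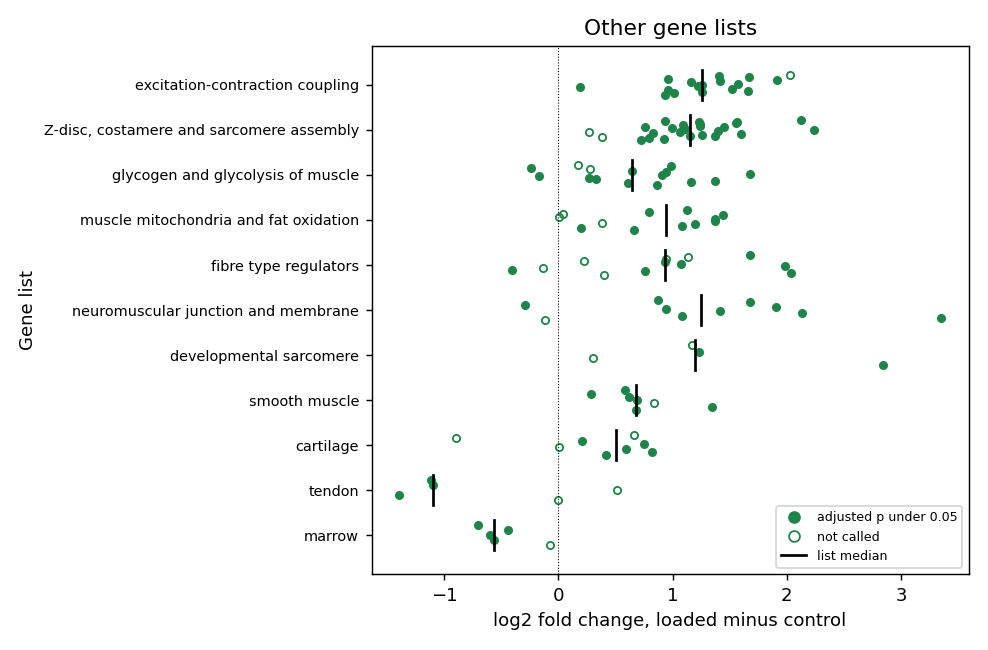
Log2 fold change (x axis, loaded minus control) of each tested gene in 11 other lists (y axis), filled where the adjusted p was under 0.05, with the list median as a bar. The excitation-contraction and sarcomere assembly lists have medians of 1.26 and 1.16, and the tendon and marrow lists have medians below 0.

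Markers of other cells moved too, where 17.9% of all tested genes were called higher and 18.0% lower. Bone genes rose in 5 of 5 cases (summed level 2147 to 2214 CPM in control and 4895 to 5128 CPM in loaded libraries) and smooth muscle genes in 6 of 7 (68.3 to 78.9 CPM in control and 102 to 114 CPM in loaded libraries). Cartilage genes rose in 5 of 8. Tendon genes fell in 3 of 5 (179 to 189 CPM in control and 139.8 to 146 CPM in loaded libraries) and marrow genes in 4 of 5. Their part in the muscle result was not tested. CPM are relative to each library's TMM-adjusted total, so levels of different tissues are not independent.

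The 8 cardiac markers summed to 8.74 ± 0.191 and 13.4 ± 1.40 CPM in control and loaded libraries (SD, n = 3 each), with each loaded sum above each control sum. Most of that difference was Myl4, at 3.39 ± 0.238 CPM in control and 7.97 ± 1.07 CPM in loaded libraries. Of the 8 markers Myl7, Nppa and Nppb were at 0 in every library, and Tnni3 and Mybpc3 were below the count filter, with at most 10 counts a library. Myl4, also listed among the developmental forms, rose by 1.23 ± 0.160. Tnnt2 had 11, 0 and 13 counts in control 1 to 3 against 23, 8 and 16 counts in loaded 1 to 3. It was not called (1.17 ± 0.808). Myh6, a myosin heavy chain of the heart, had 4.70 ± 0.286 and 4.68 ± 0.442 CPM in control and loaded libraries and was not called. Slow members that the heart also uses, such as Myh7, Tnnc1, Myl2 and Myl3, are shared with that tissue, and its part in their values was not tested. The satellite cell marker Pax7 was also at 0 in every library, while Myod1, the muscle determination factor, rose from 2.59 ± 0.959 to 11.8 ± 1.18 CPM (2.19 ± 0.218). The 5 satellite cell markers summed to 7.10 to 8.44 CPM in control and 16.0 to 18.8 CPM in loaded libraries, and most of that difference was Myod1. Calcr went the other way, at 1.46 ± 0.254 CPM in control and 0.957 ± 0.0518 CPM in loaded libraries. It was not called (edgeR adjusted p = 0.167). Chodl was not called either, and Pax7 and Myf5 were below the filter.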

How the data were processed

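RNA of 3 control and 3 loaded libraries was extracted with TRIzol and prepared with a Hieff NGS Ultima mRNA kit, per the labels' protocols. The deposited table held raw whole-number counts per gene, per the file headers, and FPKM values that the authors computed per library. The submitters' processing notes list HISAT2, DESeq2 and mm10, a mouse build, with no role or version, although identifiers are rat Ensembl ones. The aligned build is therefore uncertain. The sources used here name no counting tool or strand setting, so reads of overlapping antisense genes cannot be told apart, and close paralogs may share reads.

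After 10 spilled lines of 26991 were dropped, counts went into edgeR 4.0.16 (R 4.3.3) with filterByExpr (16447 of 26981 features kept), TMM scaling and the robust quasi-likelihood test, fitted to both groups alone. Calls used Benjamini-Hochberg adjusted p under 0.05. CPM use TMM-scaled totals, and an SE is the log2 change over the root of F. Classes are those of the gene list. FPKM entered shares and levels only. The planned heavy chain share over 4 genes could use only Myh7 and Myh2. Promoters came from RefSeq, build GRCr8.

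The members and lists were chosen with earlier results of these data known. Named are all members and, per other list, the 3 called genes with the smallest adjusted p and called genes moving against the list. Others (Trdn, Myh8, Chrne, Dok7, Eya1, Lmod1 and unnamed-feature rows) were chosen after their values were seen. So were the remaining cardiac and satellite cell markers, among them Tnnt2, Myh6, Pax7 and Calcr. The marrow markers are also named in full. Alternatives were DESeq2 1.42.0, median-of-ratios size factors, library totals, TMM without the members, other filters, a replicate block, each library left out and a threshold of 0.01. Values of some genes that this rule names are not reported here. The edgeR step was also run on simulated counts with known changes.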

Additional observations from a re-analysis of the deposited data

How the results depend on the processing

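All 32 rises among the 34 genes were called in each of the 13 alternative fits and at an adjusted p under 0.01, and only the call of Tpm3 changed. No listed gene reversed. Leaving out 1 library at a time gave 4645 to 5614 called genes (5895 with all), 32 members called higher, slow medians of 0.73 to 0.76, fast medians of 1.07 to 1.15, slow minus fast of -0.42 to -0.31, a change of the slow FPKM share of -3.15 to -2.95 percentage points and of the Myh7 part of Myh7 plus Myh2 FPKM of -0.362 to -0.184 points. With library totals the slow median was 0.82 and the fast median 1.19, and rises were 63.3% of calls against 49.9%. The median of all tested genes was then 0.079, a shift of the scaling that the members share, and the classes still differed by -0.37.

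Of choices made after seeing the data, without Atp2a2 and Myl3, the slow members that changed least, the slow median was 0.86 and the difference -0.26. With the features annotated as Atp2a1 in the fast class the slow share fell by 2.59 points (6.78% to 4.19%) in place of 3.04 (7.85% to 4.80%). From counts in place of FPKM it fell by 3.62 points (9.56% to 5.94%), and without Myl3 and Mylpf it fell by 1.92 points (6.42% to 4.49%). The starting levels differ, so these falls in points are not directly comparable. The replicate numbers pair nothing in the labels, and deviations of same-numbered libraries correlated at -0.014 to 0.046. With the number as a replicate block 5349 genes were called, 32 members rose, and of the member calls only that of Tpm3 was lost (adjusted p = 0.0822). Of 133 other listed genes 17 changed call in at least 1 alternative, among them Chrne, Dok7, Eya1 and Lmod1.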

Other observations

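Across the 34 muscle genes the log2 fold change had weak rank correlations with abundance and length. The rank correlation of the log2 fold change with log10 mean FPKM was 0.118, and with the transcript length implied by count per FPKM it was -0.159 (n = 34 genes of the same 6 libraries, which are not independent). Acta1 alone supplied 14.2%, 14.3% and 14.0% of the members' summed FPKM in control 1 to 3 and 14.6%, 14.9% and 15.4% in loaded 1 to 3. Tpm3 went from 4.27%, 4.57% and 4.33% to 1.78%, 1.75% and 1.84%, lower in all 3 loaded libraries, while its own level was 370.3 ± 18.8 FPKM in control and 372 ± 9.08 FPKM in loaded libraries (SD, n = 3 each).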
